A study of Mus musculus with 15 samples.

Results

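The AMPA and NMDA receptor subunits are the pore-forming proteins of the main fast glutamate receptors of the brain. Transcripts of 10 subunit genes were followed here: Gria1, Gria2, Gria3 and Gria4 for AMPA receptors, and Grin1, Grin2a, Grin2b, Grin2c, Grin2d and Grin3a for NMDA receptors. They were taken by symbol, through their Ensembl identifiers, from a table of 54232 mouse gene identifiers, and all 10 passed the filter on low counts that left 18278 genes for testing. The data are RNA sequencing counts from striata of 6-month-old mice, 1 library for each mouse, in a study of knock-in mouse models of Huntington's disease. The groups were KI-96 with 4 mice, E1 with 4 mice and WT, the wild type, with 7 mice. Genotype is what the labels set apart, under these names alone: they give no allele, repeat length, promoter, strain background, sex or batch for any group, and no treatment. Each mouse has a number of its own, so the replicates are separate animals.

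Ionotropic glutamate receptors are channels that open when glutamate binds. AMPA receptors are assembled from the GluA subunits and carry most of the fast excitatory current, and a channel that contains the edited GluA2 subunit, the product of Gria2, lets little calcium through. NMDA receptors join the obligatory GluN1 subunit, the product of Grin1, with GluN2 or GluN3 subunits. Those of GluN1 and GluN2 admit calcium, and pass current mainly when glutamate binding coincides with a depolarised membrane. In the striatum these receptors sit on the spiny projection neurons that receive input from cortex and thalamus, and on local interneurons.

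The stretch that lines the narrow part of the pore is shown for 8 of the genes because the families differ there in the property that sets them apart, calcium and magnesium handling. Each line gives 30 bases of coding sequence, 5′ to 3′ on the strand of the gene, from GENCODE M21 transcripts on build GRCm38, with the codon of the pore-loop site in capitals. Each stretch lies within 1 coding exon.
Gria1 at chr11:57243082-57243111, plus strand, exon 11 of 16: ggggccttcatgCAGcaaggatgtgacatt
Gria2 at chr3:80706896-80706925, minus strand, exon 11 of 16: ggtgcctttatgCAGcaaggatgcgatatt
Gria3 at chrX:41610253-41610282, plus strand, exon 11 of 16: ggtgcttttatgCAGcaaggatgtgatatt
Gria4 at chr9:4464122-4464151, minus strand, exon 12 of 17: ggtgcctttatgCAAcaaggatgtgacatt
Grin1 at chr2:25297371-25297400, minus strand, exon 14 of 21: ggcgtcctgctcAACtctggcattggggaa
Grin2a at chr16:9653546-9653575, minus strand, exon 10 of 14: ggcctggtcttcAACaattctgtgcccgtc
Grin2c at chr11:115253848-115253877, minus strand, exon 11 of 15: gcactggtcttcAACaactctgttcccatc
Grin2d at chr7:45854378-45854407, minus strand, exon 8 of 12: gccctggtgttcAACaactccgtgccagtg
The 4 AMPA genes carry a glutamine codon at this site, written CAG in Gria1, Gria2 and Gria3 and CAA in Gria4, and the NMDA genes shown carry the asparagine codon AAC. In the Gria2 transcript the middle base of this codon is edited by the RNA-editing enzyme encoded by Adarb1, so that the protein reads arginine there. Counts per gene do not show editing, and edited and unedited Gria2 transcripts were counted together.

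Paralogous subunits can share short runs of sequence, which bears on how counts are split between them. Over annotated exons, 11 of the 45 pairs of subunit genes shared at least 1 run of 25 bases or more, and in 8 of these pairs the longest run was not a simple repeat. The longest such run joined Gria2 and Gria3 over 56 bases.
Gria2 and Gria3: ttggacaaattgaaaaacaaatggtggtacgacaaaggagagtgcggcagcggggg
Gria2 and Gria4 shared 55 bases and Gria1 and Gria2 shared 40 bases, against exon lengths of 6043 bases for Gria1 and 15548 bases for Gria2. The sources used here do not give how reads that match several genes were treated. A second overlap concerns Grin1: 1307 of its exonic bases lie opposite the antisense gene Grin1os, and with no record of stranded counting, reads of the pair cannot be told apart there. Grin1os held 5567 counts over all libraries, against 98332 for Grin1.

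Counts totalled 14678565 to 23373551 per library in KI-96, 18199927 to 19533231 in E1 and 17281603 to 26388542 in WT, and the lowest raw count of any subunit in any library was 162. Levels are given as CPM, the count scaled to a common library size by the trimmed mean of M-values. Markers of spiny neurons were present in every library, with Drd1 between 162 and 336 CPM and Drd2 between 183 and 360 CPM. Before the results, 3 features of the libraries need stating, since some fold changes below differ when these are taken into account. KI-96 replicate 3 deviated with transcript length: relative to WT its protein-coding genes had a median log2 difference of -0.52 in the fifth with the shortest exons and 0.25 in the fifth with the longest, and the gap of 0.77 between these compares with -0.25 to 0.09 in the other 14 libraries. This gap was -0.21, -0.20, -0.058 and -0.18 in E1 replicates 1 to 4 and -0.25 in KI-96 replicate 4. In WT, whose median is the reference, it was -0.067 to 0.064. Markers of cortical excitatory neurons were high in E1 replicates 2 and 3 and WT replicate 3, where Slc17a7 reached 914, 597 and 816 CPM, against 5.97 to 91.0 CPM in the other 12 libraries. Y-linked transcripts summed to 158 CPM or more in WT replicates 2 to 7, and to at most 0.132 CPM in all KI-96 and E1 libraries and in WT replicate 1, so that genotype and the level of Y-linked transcripts can be told apart only through WT replicate 1.

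**Figure D1:**
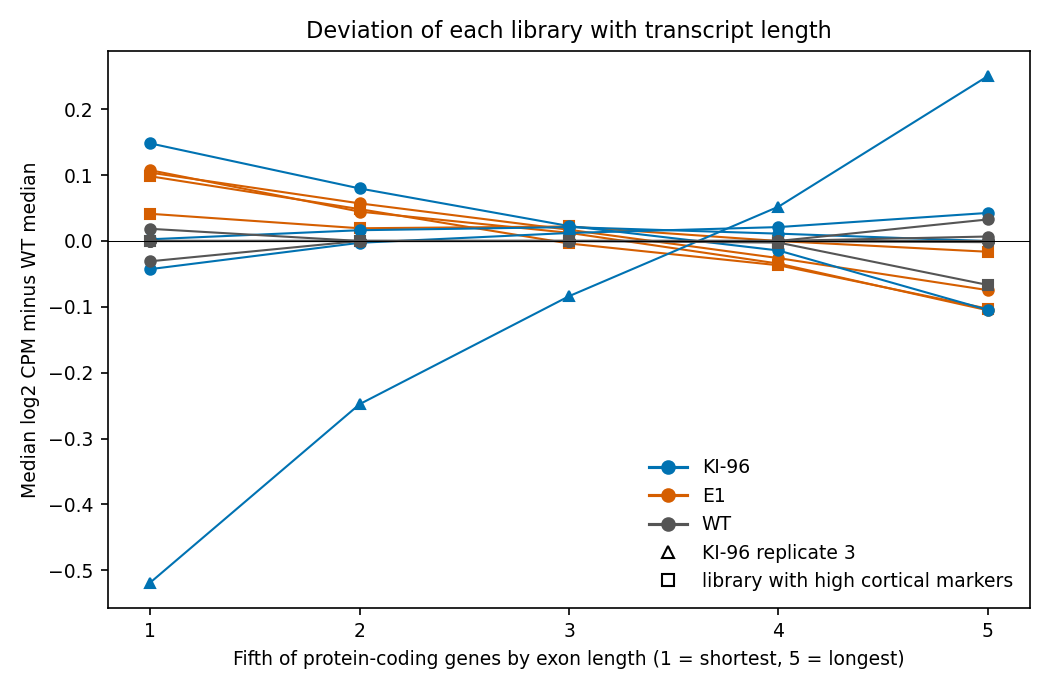
Median log2 difference from the WT median (y axis) over protein-coding genes in 5 equal bins of exon length (x axis, 1 shortest, 5 longest), with 1 line per library coloured by group. KI-96 replicate 3 (triangles) runs between -0.52 and 0.25, and the other 14 lines stay nearer 0. The E1 lines and that of KI-96 replicate 4 are lower in the longest bin than in the shortest, opposite to KI-96 replicate 3.

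Compared per kilobase of all annotated exons, the AMPA subunit transcripts Gria1 and Gria2 had the highest means of the 10 genes in every group. The ranges of Gria2 and of Grin1, the next in order, overlapped in each group. The level per kilobase of exon was 98.0 ± 21.4 CPM for Gria1 in KI-96, 79.7 ± 9.49 CPM in E1 and 78.7 ± 5.78 CPM in WT (SD, n = 4, 4 and 7). Gria2 followed at 42.5 ± 6.42, 45.0 ± 5.68 and 43.8 ± 4.04 CPM per kilobase in KI-96, E1 and WT. In WT the order below these was Grin1 at 34.1, Grin2b at 21.9, Gria3 at 19.1, Gria4 at 15.8, Grin2c at 14.7, Grin2a at 6.22, Grin2d at 2.98 and Grin3a at 2.04 CPM per kilobase. Among neighbours in that order, the ranges over WT libraries separated Gria1 from Gria2, Grin2c from Grin2a and Grin2a from Grin2d, and all other neighbours overlapped. Grin3a, whose subunit lowers the calcium entry of NMDA receptors, was thus the lowest of the set per kilobase of exon, with a range that overlapped that of Grin2d. In CPM not divided by length, Grin2d was lower in WT, at a mean of 19.8 against 25.1 for Grin3a. The order depends on the length used: over the longest annotated transcript instead of all exons, Grin1 came above Gria2 in every group, and Gria3 above Grin2b. Grin1 was then at 82.8 against 63.7 CPM per kilobase for Gria2 in KI-96, 76.0 against 67.5 in E1 and 77.3 against 65.6 in WT. By that length Grin2d was the lowest in E1, at 2.57 against 2.90 CPM per kilobase for Grin3a.

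No subunit passed the test across all genes in any comparison of genotypes. Of the 10 genes, 0 passed an adjusted p of 0.05 in edgeR's quasi-likelihood test. The smallest adjusted p of a subunit was 0.391 in KI-96 against WT, 0.569 in E1 against WT and 0.277 in KI-96 against E1. DESeq2 and limma-voom also called 0 of 10 in each. The background was as low: edgeR called 0% of the 18278 genes in KI-96 against WT, 0.00547% in E1 against WT (1 gene) and 0% in KI-96 against E1, while DESeq2 called 66, 53 and 206 genes and limma-voom 0, 2 and 0. Leaving out E1 replicate 4 raised edgeR's calls over all genes to 257 in E1 against WT and 190 in KI-96 against E1, leaving out KI-96 replicate 4 raised them to 128 in KI-96 against E1, and leaving out WT replicate 1 raised them to 11 in KI-96 against WT and 12 in E1 against WT, still with 0 subunits. At an unadjusted p under 0.05 edgeR gave 2 of 10 subunits in KI-96 against WT, both higher, beside 10.5% of all genes (5.8% higher, 4.68% lower). It gave 1 of 10 in E1 against WT, which was lower, beside 8.75% (3.69% higher, 5.06% lower), and 2 of 10 in KI-96 against E1, both higher, beside 14.3% (7.84% higher, 6.42% lower). No subunit had groups that failed to overlap in any comparison, where 1.31%, 1.71% and 4.79% of all genes had. The median log2 fold change over the 10 genes was 0.11 in KI-96 against WT with 7 positive, -0.0076 in E1 against WT with 5 positive, and 0.24 in KI-96 against E1 with 8 positive. Over all genes these medians were -0.011, -0.0019 and -0.0037, with 47.9%, 49.7% and 49.4% positive. In whole tissue, fewer cells of a type and less RNA per cell cannot be told apart in any of these values.

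**Figure D2:**
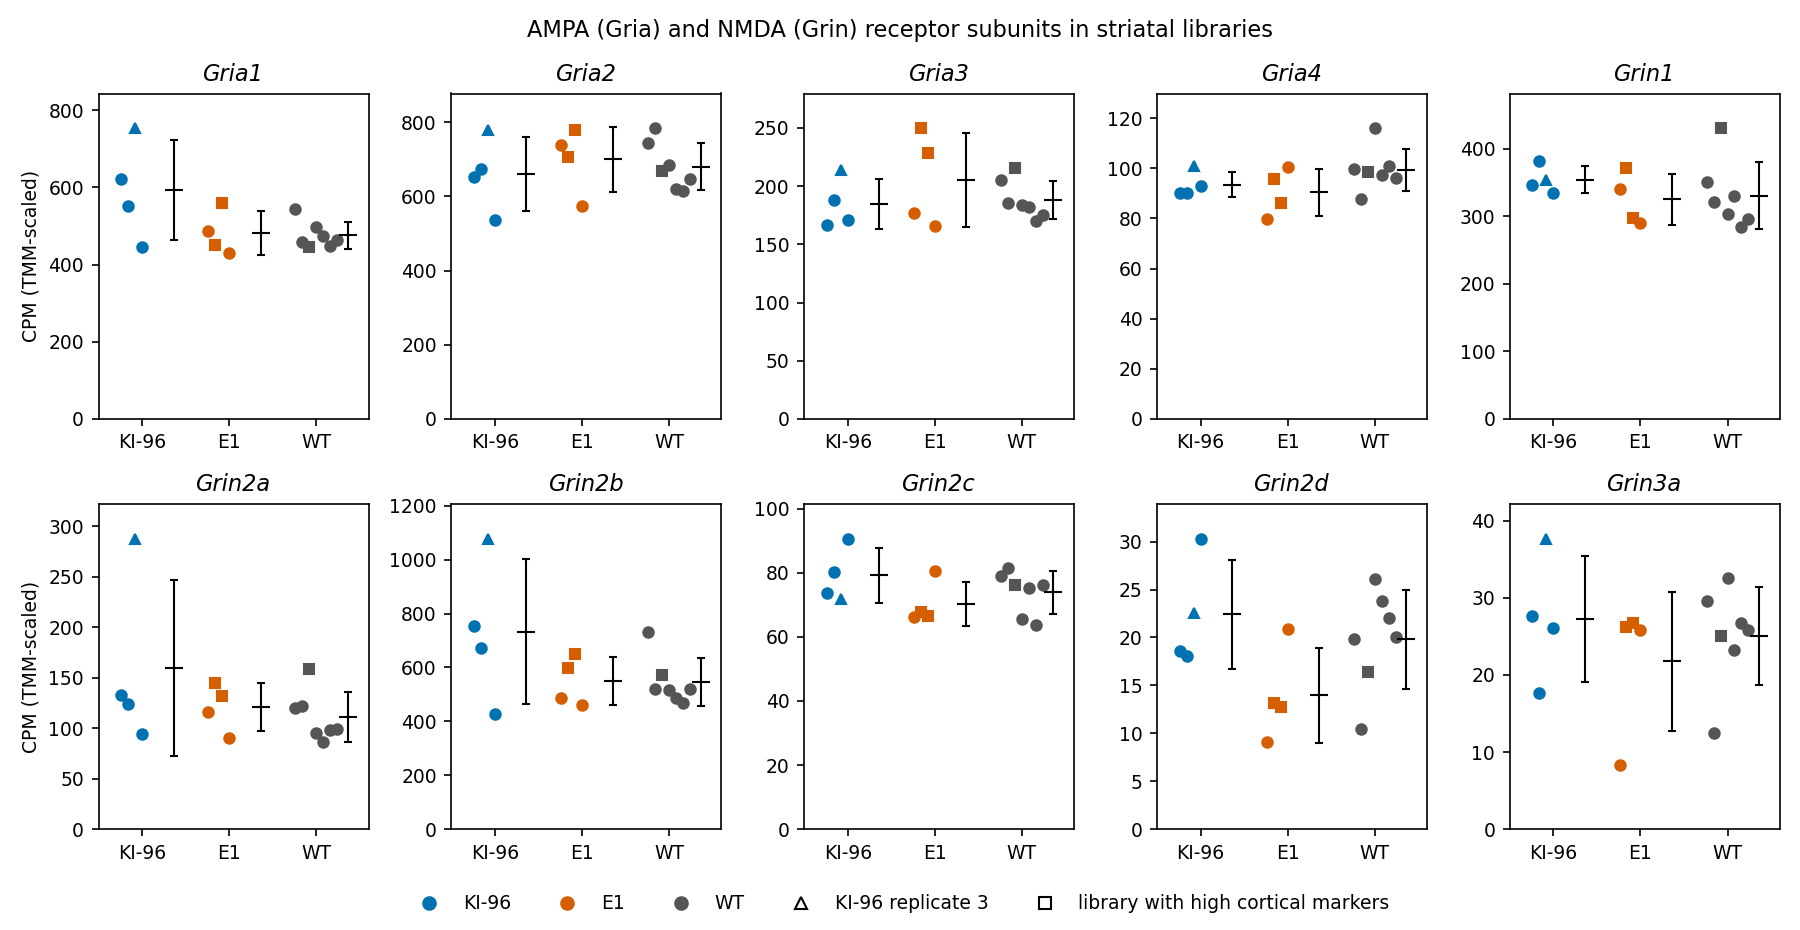
Level of each subunit transcript in CPM (y axis) in every library of KI-96, E1 and WT (x axis), with mean and SD beside the points. KI-96 replicate 3 (triangles) stands highest for Gria1, Grin2a, Grin2b and Grin3a, and the groups overlap in all 10 panels.

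Gria1 encodes GluA1, the AMPA subunit that is added to synapses during potentiation, and lies at chr11:57011387-57330244 on the plus strand. It was at 621, 551, 753 and 445 CPM in KI-96 replicates 1 to 4 and at 488, 450.2, 559.8 and 429 CPM in the E1 replicates, and in WT its lowest, median and highest values were 444, 463 and 544 CPM. KI-96 replicates 1, 2 and 3 lay above every WT library, and replicate 4 lay at the low end of the WT range. The log2 fold change was 0.32 in KI-96 against WT (SE 0.12, 95% interval 0.059 to 0.57, adjusted p = 0.391) and 0.02 in E1 against WT (SE 0.12, interval -0.24 to 0.28, adjusted p = 0.977). KI-96 against E1 gave 0.30 (SE 0.14, interval 0.0047 to 0.59, adjusted p = 0.343). Without KI-96 replicate 3, which deviates with transcript length, the value was 0.18 against WT and 0.16 against E1, and with the level of Y-linked transcripts as a covariate it was 0.12 against WT. The value with this covariate rests on WT replicate 1, the WT library without Y-linked reads, which was the highest of WT for Gria1 at 544 CPM.

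Gria2, the gene of the subunit that limits calcium entry, lies at chr3:80681450-80802835 on the minus strand. It was at 654, 673, 779 and 535 CPM in KI-96, at 739, 708, 779.5 and 575 CPM in E1, and at 616, 669 and 784 CPM as the lowest, median and highest of WT. All groups covered about the same range. Gria2 had a log2 fold change of -0.04 in KI-96 against WT, with a 95% interval of -0.29 to 0.20, and 0.04 in E1 against WT, with an interval of -0.20 to 0.29.

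Gria3 and Gria4 encode the remaining AMPA subunits, GluA3 and GluA4. Gria3, at chrX:41400854-41678601 on the plus strand, was at 167, 188, 214 and 171 CPM in KI-96, at 177, 249.7, 229 and 166 CPM in E1, and at 170.0, 184 and 216 CPM as the lowest, median and highest of WT. Its 3 highest values were those of E1 replicates 2 and 3 and WT replicate 3, the libraries with high cortical markers. The log2 fold change in E1 against WT was 0.13 with a 95% interval of -0.11 to 0.37, and it was -0.10 without those 3 libraries. In KI-96 against WT it was -0.02, with an interval of -0.27 to 0.22. Gria4, at chr9:4417896-4796234 on the minus strand, had the smallest spread of the 10 genes among the KI-96 mice, at 90.1, 90.0, 101 and 92.9 CPM. It was at 79.6, 95.6, 86.1 and 101 CPM in E1 and at 87.6, 98.5 and 116 CPM as the lowest, median and highest of WT, and its log2 fold change was -0.09 in KI-96 against WT (95% interval -0.27 to 0.093) and -0.14 in E1 against WT (interval -0.32 to 0.046).

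Grin1 encodes GluN1, the subunit every NMDA receptor needs, and lies at chr2:25291181-25319187 on the minus strand. It was at 347, 381, 353 and 335 CPM in KI-96, at 339.7, 371, 298 and 290.4 CPM in E1, and at 285, 321 and 430.2 CPM as the lowest, median and highest of WT. The KI-96 libraries clustered within the WT range, whose top was WT replicate 3. Grin1 had a log2 fold change of 0.10 in KI-96 against WT (95% interval -0.14 to 0.33) and -0.03 in E1 against WT (interval -0.26 to 0.21). Its antisense neighbour Grin1os averaged 17.1 ± 2.63 CPM in KI-96, 18.6 ± 3.15 CPM in E1 and 19.9 ± 4.86 CPM in WT.

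Grin2a and Grin2b encode GluN2A and GluN2B, the GluN2 subunits of most forebrain NMDA receptors, and Grin2b is the gene of the receptor type most studied in Huntington's disease models. Grin2b, at chr6:135713233-136173511 on the minus strand, was at 753, 673, 1078 and 427 CPM in KI-96, at 486, 598, 649.8 and 461 CPM in E1, and at 466.4, 519.6 and 731 CPM as the lowest, median and highest of WT. The KI-96 group held both the highest and the lowest of all 15 libraries, in replicates 3 and 4. For Grin2b the log2 fold change was 0.43 in KI-96 against WT (SE 0.19, 95% interval 0.037 to 0.82, adjusted p = 0.432) and 0.01 in E1 against WT (interval -0.39 to 0.41, adjusted p = 0.992). The KI-96 value was 0.18 without replicate 3, 0.61 without replicate 4 and -0.0035 with the Y-linked covariate, and the highest WT library, WT replicate 1, is the WT library without Y-linked reads.

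Grin2a, at chr16:9567898-9995560 on the minus strand, was at 133, 124, 288 and 94.2 CPM in KI-96, at 116, 145, 132 and 90.0 CPM in E1, and at 86.1, 99.1 and 159 CPM as the lowest, median and highest of WT. KI-96 replicate 3 held 2.46 times the mean of the other KI-96 libraries, which lay inside the WT range. The log2 fold change in KI-96 against WT was 0.52 (SE 0.25, 95% interval -0.0017 to 1.05, adjusted p = 0.479) with that library and 0.07 without it. In KI-96 against E1 it was 0.41 with it and -0.04 without it, and in E1 against WT it was 0.12 (interval -0.41 to 0.65).

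Grin2c and Grin2d encode GluN2C and GluN2D, whose receptors are less sensitive to magnesium block. Grin2c, at chr11:115249169-115267243 on the minus strand, was at 73.8, 80.4, 71.9 and 90.6 CPM in KI-96, at 66.3, 67.8, 66.4 and 80.7 CPM in E1, and at 63.6, 76.2 and 81.6 CPM as the lowest, median and highest of WT. Replicate 4 was the highest in both KI-96 and E1. Its log2 fold change was 0.10 in KI-96 against WT (95% interval -0.096 to 0.29), -0.07 in E1 against WT (interval -0.27 to 0.12) and 0.17 in KI-96 against E1 (interval -0.049 to 0.39).

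Grin2d, which in forebrain is mainly a gene of interneurons, lies at chr7:45831883-45878378 on the minus strand. It was at 18.6, 18.1, 22.5 and 30.3 CPM in KI-96, at 9.07, 13.1, 12.8 and 20.8 CPM in E1, and at 10.4, 20.1 and 26.1 CPM as the lowest, median and highest of WT. E1 replicates 1, 2 and 3 lay at the low end with WT replicate 2, and E1 replicate 4 lay above the WT median. The log2 fold change was -0.51 in E1 against WT (SE 0.24, 95% interval -1.01 to -0.0031, adjusted p = 0.569) and 0.18 in KI-96 against WT (SE 0.23, interval -0.31 to 0.67, adjusted p = 0.809). KI-96 against E1 gave 0.69 (SE 0.27, interval 0.13 to 1.25, adjusted p = 0.277). Leaving out E1 replicate 1 gave -0.35 in E1 against WT, and leaving out E1 replicate 4 gave -0.77.

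Grin3a encodes GluN3A, which is most abundant early in life, and lies at chr4:49661611-49845744 on the minus strand. It was at 27.6, 17.7, 37.7 and 26.0 CPM in KI-96, at 8.30, 26.2, 26.8 and 25.8 CPM in E1, and at 12.5, 25.8 and 32.6 CPM as the lowest, median and highest of WT. E1 replicate 1 stood far below the other 3 E1 libraries, and each group overlapped the others. For Grin3a the log2 fold change was 0.12 in KI-96 against WT (95% interval -0.50 to 0.74) and -0.21 in E1 against WT (interval -0.83 to 0.42), and the E1 value was 0.06 without E1 replicate 1. As folds, the KI-96 against WT intervals ran from 0.807 to 1.59 for Grin2d and from 0.708 to 1.67 for Grin3a.

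**Figure D3:**
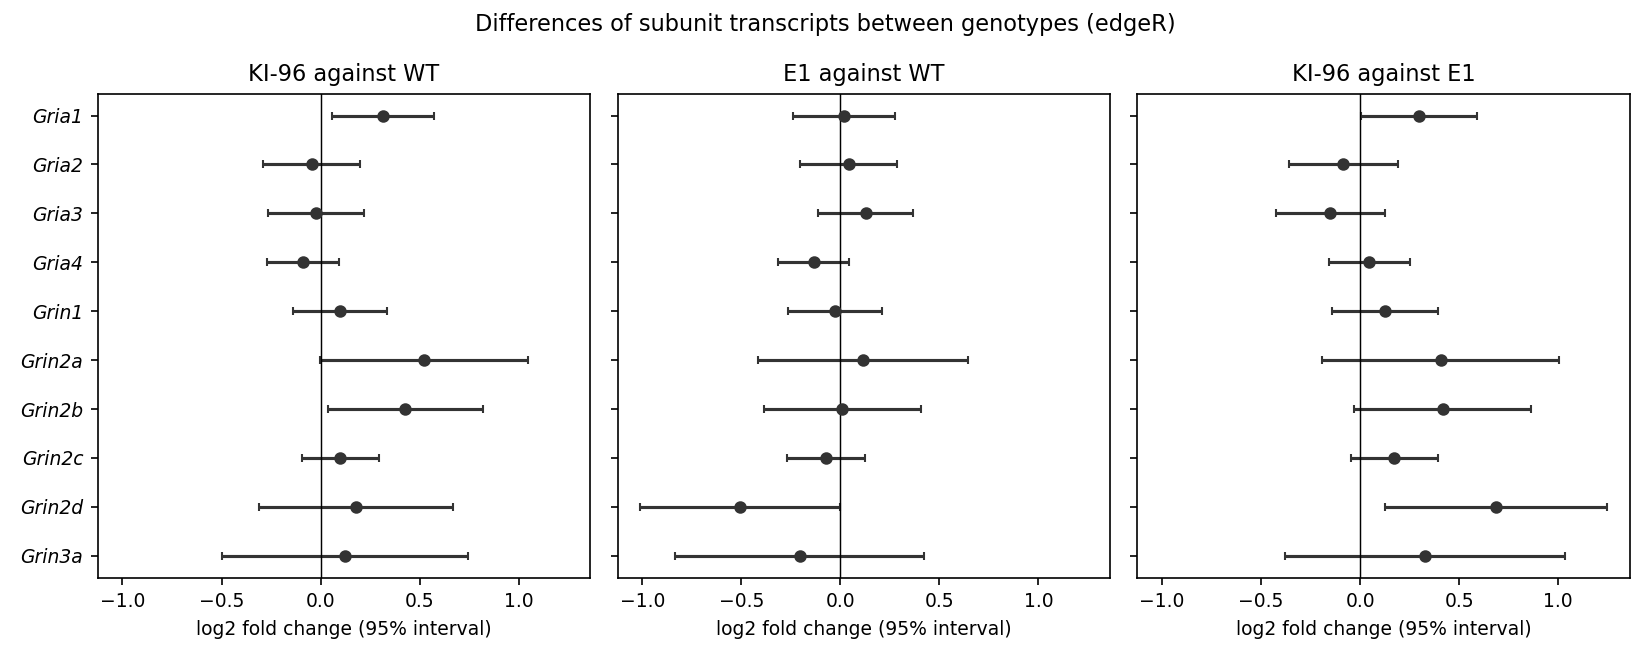
Log2 fold change of each subunit (x axis) with its 95% interval from edgeR's quasi-likelihood fit, for KI-96 against WT, E1 against WT and KI-96 against E1. The values lie between -0.51 and 0.69, the intervals of Grin2a, Grin2d and Grin3a are among the widest, and 0 of 10 genes passed an adjusted p of 0.05 in any panel.

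The make-up of the receptors was compared as ratios of subunit transcripts within each library, which do not depend on how libraries are scaled. Gria1 stood higher relative to Gria2 in every KI-96 library than in any library of the other groups, a difference that missed the threshold after adjustment. The log2 ratio of Gria1 to Gria2 CPM was -0.08, -0.29, -0.05 and -0.27 in the KI-96 replicates and -0.60, -0.65, -0.48 and -0.42 in the E1 replicates. In WT its lowest, median and highest values were -0.77, -0.46 and -0.39. All 4 KI-96 libraries lay above all 4 E1 and all 7 WT libraries, WT replicate 1 without Y-linked reads among them at -0.45. How often ratios of other gene pairs separate the groups in this way was not tested.

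The mean ratio was -0.17 ± 0.13 in KI-96, against -0.51 ± 0.13 in WT (SD, n = 4 and 7), a difference of 0.34 with p = 0.00606 in a two-sided exact permutation test, the smallest p these group sizes allow. Over the 9 ratio tests the Benjamini-Hochberg adjusted p was 0.0545, which misses 0.05 and is the smallest a single such result can reach. Against E1, at -0.54 ± 0.11, the difference was 0.37 with an exact permutation p of 0.0286, again the smallest possible, and an adjusted p of 0.129. E1 and WT differed by -0.02, with an exact permutation p of 0.745. The difference between KI-96 and WT was 0.30 to 0.38 when any 1 library was left out, with 0.30 without KI-96 replicate 3, and 0.41 after a per-library curve over transcript length was subtracted (exact permutation p = 0.0121, adjusted p = 0.109). Without the 3 libraries with high cortical markers it was 0.33 (exact permutation p = 0.00952, adjusted p = 0.0857), with p again the smallest possible. The adjusted p against WT ran from 0.0545 to 0.15 over these settings, and leaving out libraries raises the smallest p that can be reached. Without the same 3 libraries the difference between KI-96 and E1 was 0.34 (exact permutation p = 0.133, adjusted p = 0.6). That p is the smallest possible with E1 replicates 1 and 4 left, and all KI-96 libraries lay above both. As shares of the summed per-length level of the 4 AMPA genes, Gria1 took 56.0% ± 3.03 in KI-96, 49.8% ± 2.31 in E1 and 50.02% ± 1.64 in WT, and Gria2 took 24.5% ± 0.972, 28.1% ± 1.498 and 27.8% ± 1.80. The level of Gria2 itself gave a log2 fold change of -0.04 in KI-96 against WT and that of Gria1 0.32, and neither passed the adjusted test.

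**Figure D4:**
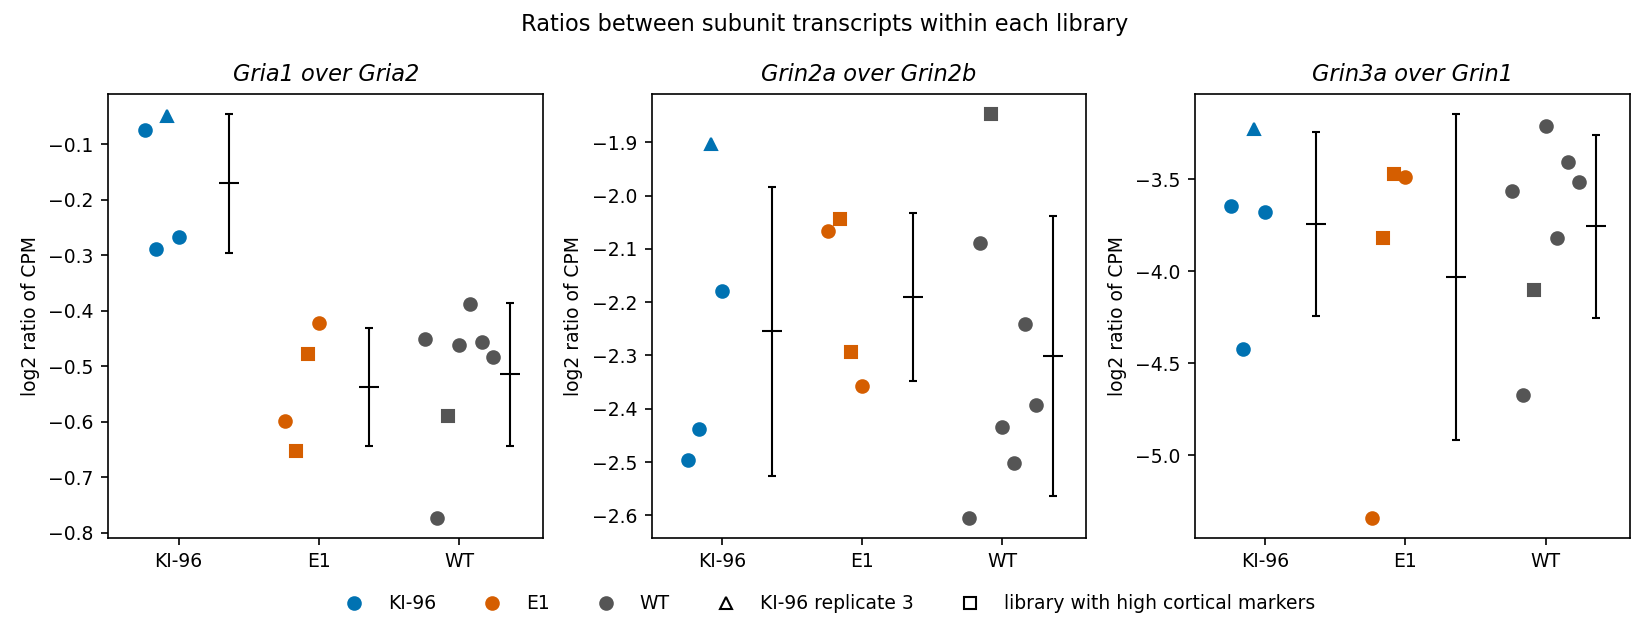
Log2 ratio of CPM between pairs of subunits (y axis) in each library of KI-96, E1 and WT (x axis), with mean and SD beside the points. For Gria1 over Gria2 the 4 KI-96 points, between -0.29 and -0.05, lie above all E1 and WT points, and the groups overlap for the other pairs.

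The NMDA ratios overlapped between all groups. The log2 ratio of Grin2a to Grin2b averaged -2.25 ± 0.27 in KI-96, -2.19 ± 0.16 in E1 and -2.30 ± 0.26 in WT. The differences were 0.05 in KI-96 against WT, 0.11 in E1 against WT and -0.06 in KI-96 against E1, with exact permutation p-values of 0.764, 0.461 and 0.714. The log2 ratio of Grin3a to Grin1 averaged -3.74 ± 0.50 in KI-96, -4.03 ± 0.89 in E1 and -3.75 ± 0.50 in WT, with exact permutation p-values of 0.988, 0.515 and 0.657 for differences of 0.01, -0.28 and 0.29. The E1 mean includes replicate 1 at -5.34, whereas the other 3 lay between -3.82 and -3.47.

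The subunits differed in how much they varied between mice of the same genotype. In WT the coefficient of variation ran from 7.34% for Gria1 to 26.1% for Grin2d, with 25.4% for Grin3a and 22.3% for Grin2a, where the quartiles over 11820 genes between 5 and 1000 CPM were 7.80%, 10.8% and 15.4%. Grin2d and Grin3a, the least abundant subunits, were lowest together: E1 replicate 1 had 9.07 and 8.30 CPM and WT replicate 2 had 10.4 and 12.5 CPM. Among 12 tested interneuron markers, 5 had a positive log2 fold change in KI-96 against WT and 3 in E1 against WT, and their summed level spanned 929 to 1187 CPM in KI-96, 908 to 1340 CPM in E1 and 1023 to 1499 CPM in WT. Their part in the subunit values was not tested.

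**Figure D5:**
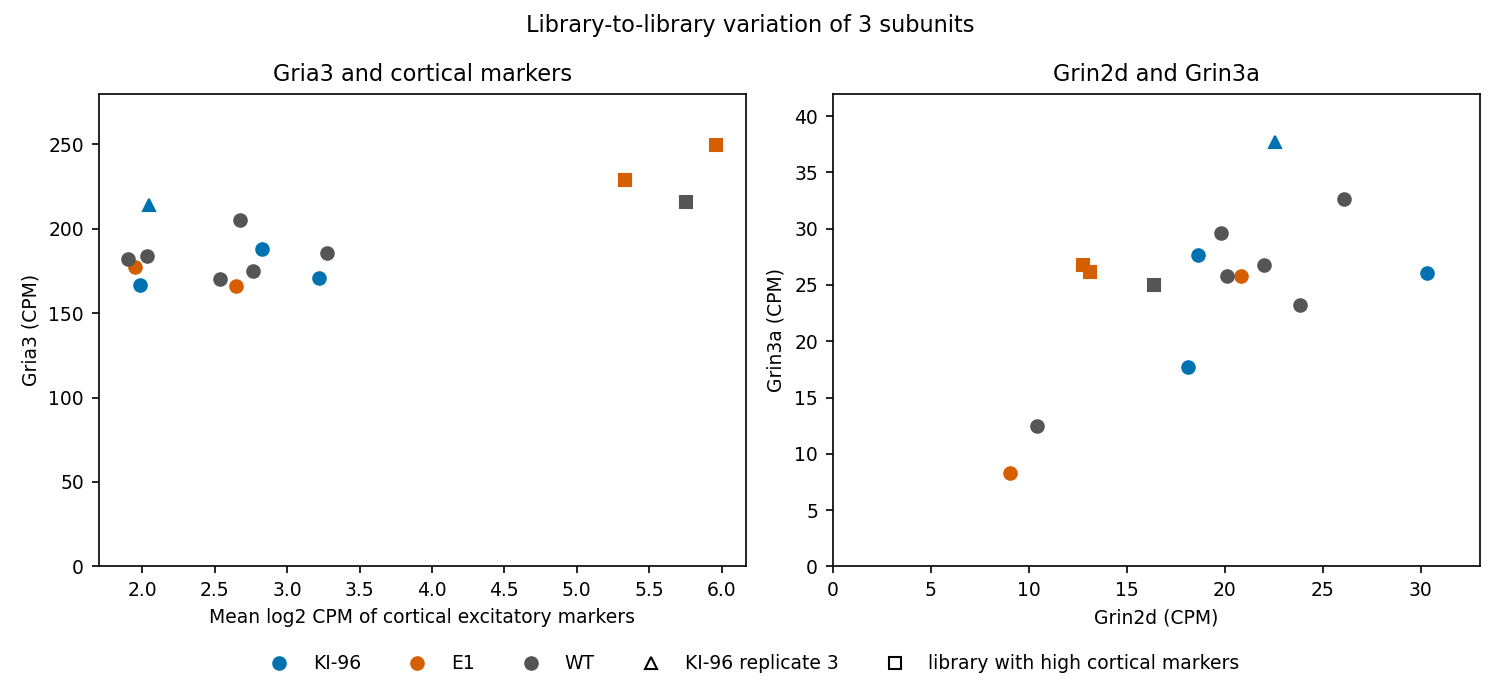
Left, Gria3 in CPM (y axis) against the mean log2 CPM of cortical excitatory markers (x axis); right, Grin3a (y axis) against Grin2d (x axis), both in CPM, with 1 point per library. The 3 libraries with high cortical markers (squares) hold the highest Gria3 values, 249.7, 229 and 216 CPM, and E1 replicate 1 and WT replicate 2 lie lowest for both Grin2d and Grin3a.

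Markers of neighbouring brain regions also differed in level between libraries. Of 15 cortical excitatory markers 4 had a positive log2 fold change in KI-96 against WT and 15 in E1 against WT, with summed levels of 518 to 589 CPM in KI-96, 438 to 2361 CPM in E1 and 405 to 2061 CPM in WT. All 9 thalamus markers were positive in KI-96 against WT, with a median log2 fold change of 0.91 and summed levels of 119 to 397 CPM in KI-96, 97.3 to 138 CPM in E1 and 109 to 189 CPM in WT. The thalamic gene Tcf7l2 was at 8.51, 7.96, 25.8 and 39.1 CPM in the KI-96 replicates, against 5.95 to 9.71 CPM in E1 and 6.23 to 13.6 CPM in WT. No subunit was called with or without cortical markers as a covariate in the fit, so the calls cannot show the part of these markers. With the covariate the log2 fold change of Gria3 in E1 against WT was 0.02, beside 0.13 without it. That of Grin2a in KI-96 against WT was 0.61, beside 0.52. The part of the thalamus markers in the subunit values was not tested.

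KI-96 replicate 3 stood furthest from the other KI-96 libraries in Grin2a and Grin2b. Relative to the mean of the other KI-96 libraries it held 2.46 times the Grin2a, 1.74 times the Grin2b, 1.58 times the Grin3a and 1.40 times the Gria1, but 1.00 times the Grin1 and 0.881 times the Grin2c. These ratios followed exon length in part. Grin2b and Grin2a have the longest exons, 24842 and 17933 bases, Grin3a has 12275 bases and Grin2c has the shortest, 5037 bases. Gria2, the third longest at 15548 bases, was at 1.26 times, below Gria1 with 6043 bases. The curve fitted to this library gives its log2 deviation from the mean of all 15 libraries, itself included. At the length of each gene it stood at 0.45 for Grin2a, 0.56 for Grin2b and 0.053 for Gria1. Against the WT mean, a different reference, the library lay higher by 1.40 for Grin2a, 1.00 for Grin2b and 0.67 for Gria1 on the log2 scale. With the length curve taken into the fit, the log2 fold change in KI-96 against WT was 0.35 for Grin2a, 0.27 for Grin2b and 0.31 for Gria1. In KI-96 against E1 it was 0.14 for Grin2a, 0.14 for Grin2b and 0.26 for Gria1, beside 0.41, 0.42 and 0.30 without the curve. For Gria2 it was -0.26 with the curve and -0.09 without it.

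Across all 15 libraries, which share the features named above, log2 levels of Gria1 and Grin2b had a Pearson r of 0.91, Grin2a and Grin2b of 0.85, Gria4 and Grin3a of 0.74, Grin2d and Grin3a of 0.73, and Gria4 and Grin2d of 0.72, while Gria2 and Grin2d ran opposite at -0.65. Among 15495 genes with a mean of at least 1 CPM, the gene most like Gria1 was Tbck with r of 0.96, followed by Tln2 and Ap3d1. Those most like Grin2b were Zc3h7b at 0.96, Gas7 and Tmem132b, and those most like Grin2a were Cbx6 at 0.96 and the putative genes Gm37677 and Gm26814. Grin1 was nearest to Dagla at 0.91, then Galnt17 and Dab2ip, and Gria2 to B230219D22Rik at 0.91, then Fam135b and Mllt3. Gria3 was nearest to Ext1 at 0.88, then Stard8 and Kcnj6, and Gria4 to 4930432K21Rik at 0.88, then Sema3c and Iqsec3. Grin2d was nearest to Klhdc8a at 0.94, then Nefh and Itga3, and Grin3a to Elavl2 at 0.95, then Ikzf4 and Slc4a8. Grin2c had the least close partners, Apln at 0.82, Itfg2 and Synpo2. These values describe 15 libraries and carry no test.

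The other genes of glutamate receptor signalling were read from 4 lists. In no list did a gene pass edgeR's adjusted test in any comparison, and the extremes of each list follow as values. Over all genes, 47.9% were positive in KI-96 against WT, 49.7% in E1 against WT and 49.4% in KI-96 against E1. In the same order, 10.5%, 8.75% and 14.3% of all genes had an unadjusted edgeR p under 0.05. The counts below at that level take higher and lower genes together. Of the 8 kainate, delta and remaining NMDA subunit genes, 6 were positive in KI-96 against WT (median log2 fold change 0.16), 4 in E1 against WT (-0.03) and 7 in KI-96 against E1 (0.11), and 2, 1 and 2 had an unadjusted p under 0.05. Grin3b, the second GluN3 gene, was highest in KI-96 against WT at 0.75 (SE 0.25, adjusted p = 0.362), at mean levels of 2.06 ± 0.748 CPM in KI-96, 1.27 ± 0.253 CPM in E1 and 1.22 ± 0.259 CPM in WT. It was also highest in KI-96 against E1, at 0.70. The kainate subunit gene Grik2 was lowest in KI-96 against WT at -0.26 and in KI-96 against E1 at -0.19, and in E1 against WT the extremes were Grik3 at 0.12 and Grik1 at -0.31.

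Another list holds 18 genes, mainly for auxiliary and assembly proteins of AMPA receptors, and includes the kainate receptor auxiliary genes Neto1 and Neto2. Of these 18 genes, 14 were positive in KI-96 against WT (median 0.10), 14 in E1 against WT (0.12) and 8 in KI-96 against E1 (-0.05). At an unadjusted p under 0.05 there were 4, 2 and 1. In KI-96 against WT the extremes were Cacng4, a transmembrane AMPA receptor regulatory protein, at 0.43 and Neto2, an auxiliary subunit of kainate receptors, at -0.28. In E1 against WT they were the cornichon gene Cnih3 at 0.79 and Neto1 at -0.11. In KI-96 against E1 they were Cacng5 at 0.40 and Cnih3 at -0.49.

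Of the 23 genes for postsynaptic scaffold and clustering proteins, 17 were positive in KI-96 against WT (median 0.13), 18 in E1 against WT (0.16) and 14 in KI-96 against E1 (0.05), with 1, 2 and 3 at an unadjusted p under 0.05. In KI-96 against WT the extremes were the scaffold gene Dlgap3 at 0.42 and Nptx1, a neuronal pentraxin that gathers AMPA receptors, at -0.66. In E1 against WT they were Nptx1 at 1.06 and Grip2, which encodes a protein that binds AMPA receptor tails, at -0.28, and in KI-96 against E1 they were Homer3 at 0.34 and Nptx1 at -1.72. Nptx1 is also on the list of cortical markers, which were high in E1 replicates 2 and 3 and WT replicate 3. DESeq2 called Nptx2, a further pentraxin, in E1 against WT, where edgeR gave 1.02 with an adjusted p of 0.383.

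Of the 13 tested genes for kinases, phosphatases and other signalling proteins at these receptors, 9 were positive in KI-96 against WT (median 0.06), 7 in E1 against WT (0.0032) and 9 in KI-96 against E1 (0.06), with 2, 1 and 2 at an unadjusted p under 0.05. In KI-96 against WT the extremes were Nos1, the neuronal nitric oxide synthase, at 0.33 and Camk2g, a calcium and calmodulin-dependent kinase, at -0.42. In E1 against WT Camk2g was again the lowest, at -0.28. In KI-96 against E1 the extremes were Adarb1, whose enzyme edits the Gria2 codon shown above, at 0.50 and Camk2a at -0.31. The 14th gene of the list, Dao, did not pass the filter on low counts.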

How the data were processed

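RNA from striatum of 15 mice was sequenced. The deposited table holds raw counts per gene, whole numbers that the authors did not normalize; the submitters' processing notes name STAR, HTSeq, GRCm38 and DESeq2 1.24.0, with no role or setting. Of 54232 identifiers 54165 matched GENCODE M21, which gave symbols, positions and exon lengths. The members and all gene lists were chosen with earlier results of these data known.

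Genes passed edgeR's default low-count filter (version 4.0.16, a minimum count of 10), and counts were scaled by the trimmed mean of M-values and fitted with the robust quasi-likelihood model (glmQLFit, glmQLFTest) over the 15 libraries with genotype as the only term. Contrasts were two-sided and Benjamini-Hochberg adjusted over 18278 genes, with a threshold of 0.05. A standard error is the log2 fold change divided by the root of the F statistic. Intervals are 95%. Log2 CPM used a prior count of 2. Within-library ratios were compared by exact permutation (scipy 1.17.1), adjusted over 9 tests. Total counts of 14678565 to 26388542 per library set the counting error, and the spread between mice exceeded it: chi-square divided by degrees of freedom was at least 8.59 over 33 pairs within groups.

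All 10 members are named. Of each list the genes past the threshold are named, or else those with the most positive and most negative log2 fold change; 1 such gene and 1 sequence are not reported here. For each member the 3 genes with the highest Pearson r of log2 CPM are named. Grin3b, Nptx2, Tcf7l2 and Grin1os were given further values after their values were seen. Alternatives were DESeq2 1.42.0, limma-voom (limma 3.58.1), other scaling factors, no filter, only the groups compared, a replicate block, covariates for cortical markers and for Y-linked transcripts, and leaving out libraries. A length curve per library (lowess span 0.3) and the unblocked fit in the libraries of the block were added after seeing the data. The count tests were first tested on simulated data.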

Additional observations from a re-analysis of the deposited data

Results flagged for a closer look

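Of 39 groups of 4 or more libraries examined for a lone high or low library, 3 held one, and chance gives such a gap in about 1 of 20 groups. Grin3a in E1 replicate 1 was 8.30 CPM, whereas the next lowest E1 library had 25.8 CPM. Grin2c in E1 replicate 4 was 80.7 CPM, whereas the next highest E1 library had 67.8 CPM. Grin2b in WT replicate 1 was 731 CPM, whereas the next highest WT library had 573 CPM and the lowest 466.4 CPM; this library is also the WT library without Y-linked reads.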

How the results depend on the processing

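Every alternative left 0 of 10 subunits called in each comparison. Of 810 alternative values of the 30 fold changes, 760 kept their direction and 50 reversed it; the cause was not tested beyond what each setting removes. With the Y-linked covariate the log2 fold change was -0.0035 for Grin2b and -0.13 for Grin3a in KI-96 against WT, and -0.18 for Gria1, -0.086 for Gria2, -0.0012 for Gria3, -0.024 for Grin2a and -0.42 for Grin2b in E1 against WT. These values rest on WT replicate 1, the WT library without Y-linked reads. With the cortical marker covariate it was 0.025 for Gria3 in KI-96 against WT, -0.032 for Grin2b in E1 against WT and 0.0071 for Gria3 in KI-96 against E1. Without the 3 libraries with high cortical markers it was 0.0050 for Gria3 in KI-96 against WT, 0.0030 for Gria2 and 0.10 for Gria3 in KI-96 against E1, and -0.072 for Gria1, -0.058 for Gria2, -0.10 for Gria3, 0.00098 for Grin1, -0.011 for Grin2a and -0.19 for Grin2b in E1 against WT. With the length curve in the fit it was 0.040 for Grin1 in E1 against WT. The Grin3a to Grin1 ratio in KI-96 against WT was -0.046 without the 3 cortical-marker libraries and -0.0032 with the length curve subtracted.

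Deviations of same-numbered libraries from their group means had correlations from -0.069 to 0.18 between KI-96 and WT. They ran from -0.10 to 0.19 between E1 and WT, and from -0.011 to 0.19 between KI-96 and E1. In the same order, 1, 1 and 2 of 4 libraries were closest to their own number. Each mouse has a number of its own, and the main fit did not use replicate numbers to pair mice. The replicate block called 0 subunits and gave -0.020 for Gria1, -0.051 for Gria2, -0.042 for Grin2a and -0.094 for Grin2b in E1 against WT, beside -0.016, -0.044, -0.044 and -0.10 without the block in the same libraries.

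Leaving out 1 library at a time also reversed some values. In E1 against WT the ranges were -0.064 to 0.069 for Gria1, -0.016 to 0.12 for Gria2, -0.096 to 0.049 for Grin1, -0.083 to 0.095 for Grin2b and -0.33 to 0.065 for Grin3a. In KI-96 against WT they were -0.13 to 0.042 for Gria2, -0.10 to 0.022 for Gria3, -0.0070 to 0.27 for Grin2d and -0.075 to 0.28 for Grin3a, and in KI-96 against E1 -0.17 to 0.00078 for Gria2, -0.011 to 0.10 for Gria4 and -0.043 to 0.59 for Grin2a. The ratio of Gria1 to Gria2 spanned -0.066 to 0.015 in E1 against WT. That of Grin2a to Grin2b spanned -0.070 to 0.13 in KI-96 against WT and -0.18 to 0.017 in KI-96 against E1, and that of Grin3a to Grin1 spanned -0.16 to 0.24 in KI-96 against WT, -0.46 to 0.16 in E1 against WT and -0.15 to 0.51 in KI-96 against E1. Grin2d and Grin3a had the fewest counts of the 10 genes, 5759 and 7372 over all libraries.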
